A study of Arabidopsis thaliana with 12 samples.

Results

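The Arabidopsis genes for the catalases and the ascorbate peroxidases were followed in the bou-2 mutant and the wild type (WT). The group was defined by locus and not by the measured values, although earlier results of these data were known when it was chosen. It held 8 of the 33326 genes in the deposited table. These were the 3 catalase genes CAT1, CAT2 and CAT3 and the 5 ascorbate peroxidase (APX) genes APX1, APX2, APX3, stromal sAPX and thylakoid tAPX. Each locus was represented by its transcript with the highest mean WT level, and 7 of the 8 passed the filter on low counts, the exception being APX2.

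Both enzyme families remove hydrogen peroxide. Catalase breaks it down to water and oxygen in peroxisomes, where glycolate oxidase releases it during photorespiration, and needs no reductant. Ascorbate peroxidase reduces it to water with ascorbate as the electron donor, in the cytosol, at the peroxisomal membrane and in chloroplasts, and the oxidized ascorbate is then returned by monodehydroascorbate and dehydroascorbate reductases, with glutathione as a further donor.

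RNA-Seq was performed with 3 libraries in each of 4 groups, which were bou-2 at day, WT at day, bou-2 at night and WT at night. All plants were of the Col-0 background and grew at 3000 ppm CO2 for 35 days in 12 h of light and 12 h of dark, and all were moved to ambient CO2 for 24 h before harvest, WT included. The mutant is a single T-DNA line with an insertion in BOU, the gene of a mitochondrial carrier, and is known for impaired glycine decarboxylase activity. The sample titles place the harvests at the beginning of the day and the end of the night, 2 h from light onset by the labels, while a second label of those day samples reads end of day and the methods text gives other offsets, and the tissue is given as mature leaves in the labels and as rosettes in the methods.

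Estimated counts summed to between 15911356 and 33046562 per library. The targeted gene BOU (AT5G46800) gave 80.6, 80.7 and 80.2 TPM, a length-corrected share of all transcripts in the library, in bou-2 at day, against 230, 139 and 171 TPM in WT at day, and 65.2, 67.0 and 65.5 TPM in bou-2 at night, against 153, 162 and 176 TPM in WT at night. It was lower in bou-2 at day (log2 fold change -1.25, standard error 0.14, with an adjusted p of 0.000235 in the quasi-likelihood test of edgeR) and likewise at night (-1.41, standard error 0.14, edgeR adjusted p = 0.000162). The 6 mesophyll markers were all above 1 TPM in every group, while the 5 root markers summed to at most 0.332 TPM and the 6 flower markers to at most 1.97 TPM in any library. The mesophyll markers moved with the genotype, since they summed to 30216 to 36211 TPM in bou-2 at day, against 51404 to 67166 TPM in WT at day, and to 32559 to 35206 TPM in bou-2 at night, against 52469 to 54939 TPM in WT at night. Markers of senescing leaves summed to 321 to 544 TPM in bou-2 at day, against 105 to 543 TPM in WT at day, and to 772 to 959 TPM in bou-2 at night, against 228 to 324 TPM in WT at night. SAG21 alone averaged 627 of a mean 855 TPM in bou-2 at night and 193 of 274 TPM in WT at night. By day it averaged 241 of 415 TPM in bou-2 and 167 of 311 TPM in WT. Of these 6 genes, 2 rose at night in the edgeR test and 4 did not pass. The day test gave 1 rise and 1 fall, and 4 did not pass. Their median log2 fold change was -0.42 at day and 1.21 at night. The 5 vascular markers summed to 83.1 to 145 TPM in bou-2 at day, against 100 to 171 TPM in WT at day. At night they summed to 120 to 188 TPM in bou-2, against 143 to 222 TPM in WT. In the edgeR test 0 of the 5 were called at either time, with median log2 fold changes of -0.53 at day and -0.35 at night. The part of these mesophyll, senescence and vascular marker differences in the results below was not tested. In whole leaves fewer cells of a type and less RNA per cell cannot be told apart.

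The stretches before the start sites are shown for the neighbouring genes CAT3 and CAT1 and for the chloroplast pair sAPX and tAPX, whose levels the results below set side by side. CAT3 (AT1G20620, chr1:7142972-7146540, plus strand) and CAT1 (AT1G20630, chr1:7146636-7150180, plus strand) lie head to tail with 95 bases between them. The chloroplast pair lies apart, with sAPX (AT4G08390) at chr4:5314871-5317963 on the plus strand and tAPX (AT1G77490) at chr1:29117500-29121093 on the plus strand. All coordinates and sequences are from the RefSeq annotation of assembly TAIR10.1. The 4 windows run 5′ to 3′ up to the base before the annotated gene start, over 250 bases or as far as the neighbouring gene, and capitals mark the matches to a motif.
CAT3, chr1:7142722-7142971, plus strand: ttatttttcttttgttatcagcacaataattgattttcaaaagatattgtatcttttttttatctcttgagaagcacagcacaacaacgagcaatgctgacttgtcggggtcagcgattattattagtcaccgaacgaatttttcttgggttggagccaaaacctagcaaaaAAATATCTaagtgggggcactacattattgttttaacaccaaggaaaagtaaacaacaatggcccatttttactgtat
CAT1, chr1:7146541-7146635, plus strand: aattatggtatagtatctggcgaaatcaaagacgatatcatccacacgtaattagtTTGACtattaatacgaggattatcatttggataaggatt
sAPX, chr4:5314621-5314870, plus strand: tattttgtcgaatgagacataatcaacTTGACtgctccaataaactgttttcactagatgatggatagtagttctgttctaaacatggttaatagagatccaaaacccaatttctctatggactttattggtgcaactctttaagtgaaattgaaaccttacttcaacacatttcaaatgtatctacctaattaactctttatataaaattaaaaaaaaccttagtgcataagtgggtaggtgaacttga
tAPX, chr1:29117345-29117499, plus strand: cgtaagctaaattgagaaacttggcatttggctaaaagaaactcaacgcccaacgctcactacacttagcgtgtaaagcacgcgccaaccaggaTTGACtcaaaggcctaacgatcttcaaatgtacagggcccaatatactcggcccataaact
Both strands were searched for the G-box CACGTG, the W-box core TTGAC, the evening element AAATATCT and the heat shock element pair GAANNTTC. The CAT3 window held 1 evening element, which 4.79% of the 27443 windows of 250 bases before protein-coding genes also held. The windows of CAT1, sAPX and tAPX each held 1 W-box core, a motif found in 20.25% of such windows of 95 bases, 44.93% of those of 250 bases and 31.55% of those of 155 bases. The windows behind these shares had a fixed length and were not cut at a neighbouring gene. No match in these windows overlapped another, and the matches are a description of the letters only.

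The members are distinct enough for the reads to be assigned between loci. How the counting divided reads between transcripts of the same locus is less certain, and the fits took the estimated counts without that uncertainty. Coding sequences were identical at 80.3% of aligned bases between CAT2 and CAT1, 76.9% between sAPX and tAPX and 72.7% between APX1 and APX2. Of the 13 pairs within the families, only CAT2 and CAT1 had any stretch of 31 bases in common in their transcripts, the unit by which reads were matched, and they had 2. CAT2 (AT4G35090, chr4:16700312-16703504, minus strand) overlaps AT4G35080 on the opposite strand by 95 bases, and reads from that stretch cannot be told apart because the library kit does not mark strand. The remaining loci were APX1 (AT1G07890, chr1:2437281-2439665, plus strand), APX2 (AT3G09640, chr3:2956156-2958330, plus strand) and APX3 (AT4G35000, chr4:16664724-16667721, minus strand), none of which overlaps another gene.

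In each group the levels, which are per length in TPM and can be compared between genes, spanned more than the changes between groups. In bou-2 at day the order was CAT2, CAT3, APX1, sAPX, APX3, tAPX, CAT1 and APX2, and no neighbours in that order overlapped. In WT at day it was CAT2, CAT3, APX1, APX3, tAPX, sAPX, CAT1 and APX2, where CAT3 overlapped APX1 and tAPX overlapped sAPX. In bou-2 at night CAT3 stood first, although its libraries overlapped those of CAT2, followed by APX1, sAPX, APX3, tAPX, CAT1 and APX2 without overlap. Within each bou-2 night library CAT3 was above CAT2, with the ratio of CAT2 to CAT3 in TPM from 0.698 to 0.950. In WT at night the order was that of WT at day, without overlap between neighbours. At both times sAPX stood at position 4 in bou-2 and 6 in WT, APX3 at 5 in bou-2 and 4 in WT, and tAPX at 6 in bou-2 and 5 in WT.

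**Figure D1:**
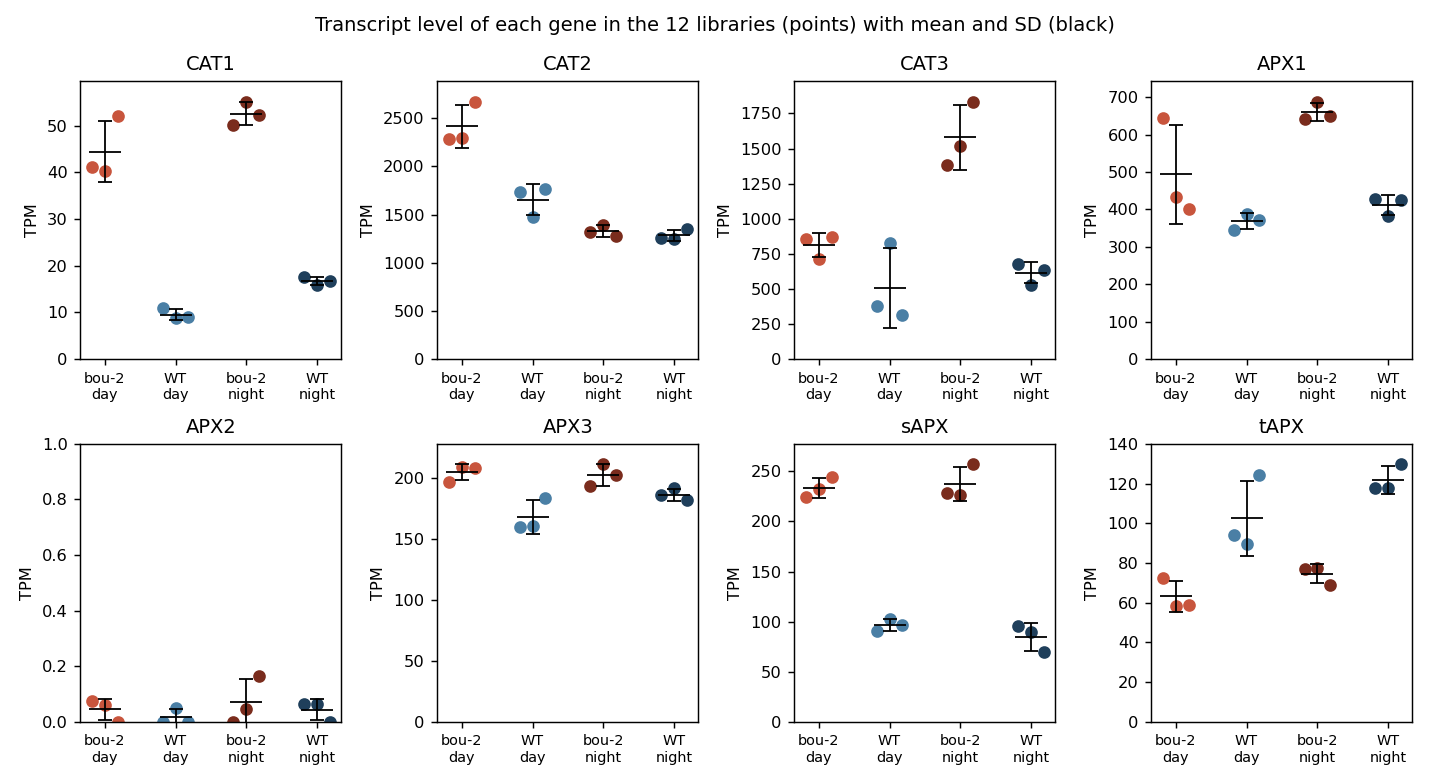
Transcript level in TPM (vertical axis, linear, from 0) of each of the 8 genes in bou-2 and WT at day and at night. Points are the 3 libraries of a group, and the black marks are the mean and SD. CAT1 and sAPX sit higher in every bou-2 library than in any WT library, tAPX sits lower, and APX2 stays below 0.2 TPM on an axis that ends at 1 TPM.

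Between the genotypes the 7 tested genes gave 3 calls higher and 1 call lower in bou-2 at day, and 4 calls higher with 1 lower at night. Of all 20458 genes tested, 14.8% were called higher and 12.8% lower at day, while the night shares were 14.8% higher and 12.2% lower, with calls made where the adjusted p was under 0.05. These were 3021 and 2627 genes at day and 3022 and 2499 at night, and limma on log2(TPM + 1) called 3915 higher and 1703 lower at day, with 3998 and 1898 at night. The median log2 fold change was 0.46 at day and 0.58 at night over the 7 genes, beside -0.04 and 0.02 over all genes tested. CAT1 and sAPX were higher and tAPX was lower at both times, CAT2 was higher at day, and CAT3 and APX1 were higher at night.

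**Figure D2:**
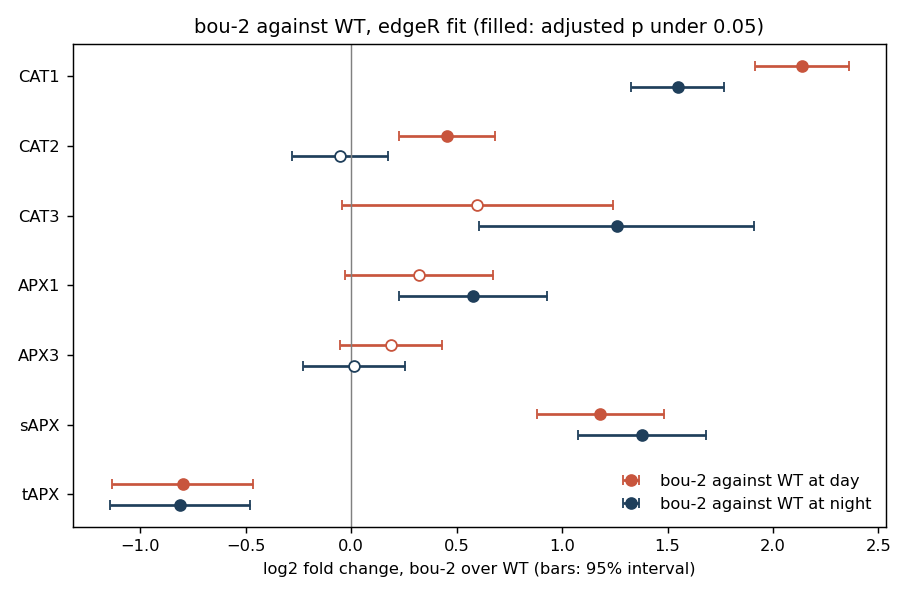
Log2 fold change of bou-2 over WT (horizontal axis) at day and at night for the 7 tested genes, with 95% intervals from the edgeR fit. Filled points have an adjusted p under 0.05. The intervals of CAT1 and sAPX lie above 0 and those of tAPX below 0 at both times, while both intervals of APX3 include 0.

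CAT2 encodes the main leaf catalase of peroxisomes, which handles the peroxide of photorespiration. Its level was 2281, 2298 and 2673 TPM in bou-2 at day, against 1730, 1470 and 1769 TPM in WT at day. Every bou-2 library was above every WT library at day. The log2 fold change was 0.46 (95% interval 0.23 to 0.68, edgeR adjusted p = 0.0102). At night it was 1314, 1395 and 1281 TPM in bou-2, against 1255, 1243 and 1352 TPM in WT. Those libraries overlapped, and the difference of -0.05 (95% interval -0.28 to 0.18, edgeR adjusted p = 0.770) did not pass the test. In a fit of the 6 day libraries alone the day call was lost (edgeR adjusted p = 0.0963).

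CAT1 encodes a catalase known mainly from pollen, seeds and stressed tissue, and was the least abundant of the 3 in these leaves. It gave 41.1, 40.2 and 52.0 TPM in bou-2 at day, against 10.8, 8.69 and 9.0 TPM in WT at day. At night it gave 50.3, 55.2 and 52.4 TPM in bou-2, against 17.6, 15.9 and 16.7 TPM in WT. The lowest bou-2 library was far above the highest WT library at both times. The fitted fold was 4.40 at day (log2 fold change 2.14, standard error 0.10, edgeR adjusted p = 3.45e-06) and 2.92 at night (1.55, standard error 0.10, edgeR adjusted p = 2.1e-05).

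CAT3 encodes a catalase known for high evening and night levels and for a role in ageing leaves. Its level was 857, 715 and 871 TPM in bou-2 at day, against 378, 829 and 311 TPM in WT at day, so that WT replicate 2 fell among the bou-2 libraries and the other WT libraries lay below them. The day difference of 0.60 (95% interval -0.05 to 1.24, edgeR adjusted p = 0.169) did not pass the test, and without WT day replicate 2 it was 1.15 (edgeR adjusted p = 0.000476). At night CAT3 gave 1384, 1519 and 1834 TPM in bou-2, against 676, 531 and 636 TPM in WT, with no overlap. It rose 2.39-fold there (log2 fold change 1.26, standard error 0.30, edgeR adjusted p = 0.0114). A minor CAT3 transcript, AT1G20620.2, at 2.73 ± 0.107 TPM in bou-2 at night and 1.18 ± 0.287 TPM in WT at night (SD, n = 3 each), was higher in bou-2 at night by 1.1 (edgeR adjusted p = 0.0212), and lost that call without any bou-2 night replicate or without WT night replicate 1 or 3 (edgeR adjusted p up to 0.0762). AT1G20620.4, with group means of at most 4.75 TPM, was not called in any comparison.

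The 3 catalase loci together, with all their transcripts, summed to 3084 to 3630 TPM in bou-2 at day, against 2124 to 2339 TPM in WT at day. At night they summed to 2767 to 3186 TPM in bou-2, against 1806 to 2024 TPM in WT. The sums in bou-2 were thus above those in WT in every library at both times. In bou-2 the shares of CAT2 and CAT3 differed between the times, while in WT their day and night ranges overlapped. In WT the CAT2 share ran from 64.0% to 84.7% at day and from 64.6% to 69.6% at night. At day CAT2 held 73.9% ± 1.81 of the catalase TPM in bou-2 and 76.8% ± 11.2 in WT (SD, n = 3 each), and at night it held 45.2% ± 4.03 in bou-2 and 67.2% ± 2.52 in WT. CAT3 held 53.1% ± 4.13 in bou-2 at night and 31.9% ± 2.51 in WT at night, so that in the mutant it exceeded CAT2 as a share. CAT1 stayed a small part at both times, at 1.34% ± 0.0803 in bou-2 at day, 0.433% ± 0.0659 in WT at day, 1.77% ± 0.109 in bou-2 at night and 0.867% ± 0.0370 in WT at night. These sums and shares are given as a description and were not tested.

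**Figure D3:**
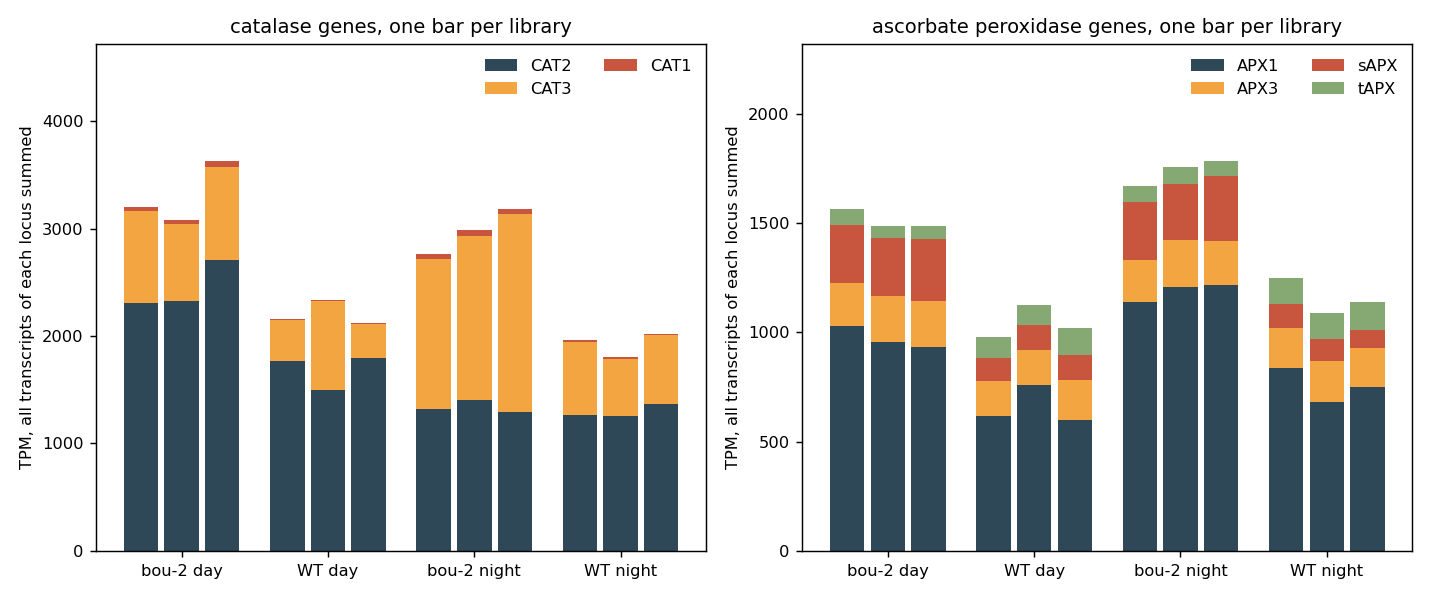
TPM summed over all transcripts of each locus (vertical axis, from 0), stacked by gene, with 1 bar for each of the 12 libraries, catalases on the left and ascorbate peroxidases on the right. CAT2 makes up most of each catalase bar except in bou-2 at night, where CAT3 takes 53.1% on average, and APX1 makes up most of every ascorbate peroxidase bar. APX2 is left out because it is too low to be seen.

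APX1 encodes the main cytosolic ascorbate peroxidase. Its leading transcript gave 644, 434 and 402 TPM in bou-2 at day, against 346, 388 and 371 TPM in WT at day, and its log2 fold change there of 0.32 (95% interval -0.03 to 0.67, edgeR adjusted p = 0.174) did not pass the test. At night it gave 643, 688 and 650 TPM in bou-2, against 429, 382 and 425 TPM in WT, and was higher in the mutant by 0.58 (standard error 0.16, edgeR adjusted p = 0.0243). That call was lost when any 1 of the 6 night libraries was left out (edgeR adjusted p between 0.0579 and 0.0836).

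A further APX1 transcript, AT1G07890.3, was nearly as abundant. It gave 361, 499 and 507 TPM in bou-2 at day, against 253, 349 and 213 TPM in WT at day, a difference of 0.65 (standard error 0.20, edgeR adjusted p = 0.0365), and at night 477, 505 and 545 TPM in bou-2, against 388, 283 and 302 TPM in WT, a difference of 0.54 that did not pass the test (edgeR adjusted p = 0.0749). In bou-2 day replicate 1 the leading transcript took 62.7% of the locus, above the other 2 libraries of that group, and AT1G07890.3 took 35.1%, below them. Of the lesser APX1 transcripts, AT1G07890.2, AT1G07890.4 and AT1G07890.8 had group means of at most 5.95 TPM and were not called in any comparison, and AT1G07890.6 reached 10.6 ± 1.78 TPM in bou-2 at day and 5.86 ± 1.54 TPM in bou-2 at night (SD, n = 3 each), where it was higher at day by 0.99 (edgeR adjusted p = 0.0396). That call was lost without bou-2 day replicate 2 or 3, bou-2 night replicate 2 or 3 or WT night replicate 1 (edgeR adjusted p between 0.0520 and 0.138). In bou-2 at day the locus as a whole showed less spread than either main transcript, at 1027, 956 and 935 TPM. It gave 618, 758 and 600 TPM in WT at day, where the leading transcript was the less spread. At night the locus gave 1140, 1210 and 1216 TPM in bou-2, against 835, 679 and 748 TPM in WT. With counts summed per gene, APX1 was higher in bou-2 at day by 0.46 (standard error 0.12, edgeR adjusted p = 0.0118) and at night by 0.53 (standard error 0.12, edgeR adjusted p = 0.00562). The call of AT1G07890.3 at day was lost when any 1 of bou-2 day replicates 2 and 3, WT day replicates 1 and 3 and bou-2 night replicates 1 and 2 was left out (edgeR adjusted p between 0.0507 and 0.126). It was also lost with the replicate block and with the 6 day libraries alone (edgeR adjusted p = 0.0522 and 0.109). At night this transcript was called under 5 of 20 alternatives. One was the fit without WT day replicate 2 (edgeR adjusted p = 0.0345). The others were DESeq2's Wald test, limma on either log2 TPM scale and edgeR on the 6 night libraries alone (adjusted p between 0.0211 and 0.0405). The leading transcript passed at day without bou-2 day replicate 3 (0.48, edgeR adjusted p = 0.0411).

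APX2 encodes a cytosolic isoform known to be induced by heat and excess light. It was listed at 0.0729, 0.0596 and 0 TPM in bou-2 at day, against 0, 0.0490 and 0 TPM in WT at day, and at 0, 0.0462 and 0.164 TPM in bou-2 at night, against 0.0651, 0.0652 and 0 TPM in WT at night. These values stand for 0 to 3 estimated counts per library, so no difference was detectable at this depth and no fold is given.

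APX3 encodes the isoform of the peroxisomal membrane. It gave 197, 209 and 209 TPM in bou-2 at day, against 160, 161 and 184 TPM in WT at day, and 194, 211 and 203 TPM in bou-2 at night, against 186, 192 and 182 TPM in WT at night. The bou-2 libraries were slightly above the WT libraries in TPM at both times. The fitted differences of 0.19 at day (95% interval -0.06 to 0.43, edgeR adjusted p = 0.251) and 0.01 at night (95% interval -0.23 to 0.25, edgeR adjusted p = 0.959) did not pass the test, and without WT day replicate 3 the day difference was 0.32 (edgeR adjusted p = 0.0445). On the log2(TPM + 1) scale the day difference of 0.29 passed in limma (adjusted p = 0.02).

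The chloroplast isoforms moved in opposite directions. sAPX encodes the soluble enzyme of the stroma, which in Arabidopsis is also sent to mitochondria. It gave 224, 233 and 244 TPM in bou-2 at day, against 91.0, 103 and 96.3 TPM in WT at day, and 229, 227 and 257 TPM in bou-2 at night, against 95.6, 89.2 and 69.1 TPM in WT at night. Each bou-2 library was above each WT library. The rise was 2.27-fold at day (log2 fold change 1.18, standard error 0.14, edgeR adjusted p = 0.000278) and 2.60-fold at night (1.38, standard error 0.14, edgeR adjusted p = 0.000162). Both lesser transcripts of the locus rose as well, AT4G08390.2 by 1.25 at day and 1.18 at night and AT4G08390.3 by 1.23 at day and 2.03 at night on the log2 scale, with edgeR adjusted p between 0.000741 and 0.00775.

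tAPX encodes the isoform anchored in the thylakoid membrane. It gave 72.4, 58.5 and 58.8 TPM in bou-2 at day, against 94.0, 89.4 and 124 TPM in WT at day, and 77.0, 77.8 and 69.2 TPM in bou-2 at night, against 118, 118 and 130 TPM in WT at night. Every bou-2 library was below every WT library, the reverse of sAPX. It was 1.74-fold lower in bou-2 at day (log2 fold change -0.80, standard error 0.15, edgeR adjusted p = 0.00401) and 1.76-fold lower at night (-0.81, standard error 0.15, edgeR adjusted p = 0.00359). In a fit of the 6 day libraries alone it just missed the threshold (edgeR adjusted p = 0.0501).

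As a description, the ratio of sAPX to tAPX in TPM ran from 3.10 to 4.15 in bou-2 at day, against 0.775 to 1.15 in WT at day, and from 2.92 to 3.72 in bou-2 at night, against 0.533 to 0.811 in WT at night. Over the 12 libraries their log2(TPM + 1) values had a Pearson r of -0.91, with the libraries parted by genotype. The 5 APX loci summed to 1485 to 1564 TPM in bou-2 at day, against 979 to 1124 TPM in WT at day, and to 1672 to 1785 TPM in bou-2 at night, against 1089 to 1250 TPM in WT at night. sAPX made up 17.98% ± 1.01 of that sum in bou-2 at day and 10.7% ± 0.370 in WT at day, and tAPX made up 4.17% ± 0.395 in bou-2 at day and 9.91% ± 2.13 in WT at day (SD, n = 3 each).

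**Figure D4:**
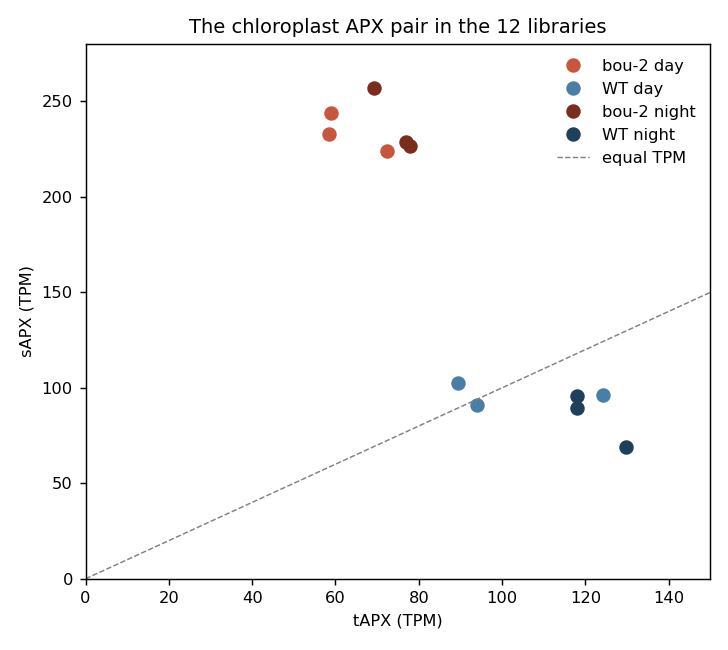
sAPX (vertical axis) against tAPX (horizontal axis), both in TPM, with 1 point per library and a dashed line where the levels are equal. The 6 bou-2 libraries lie far above the line, at ratios from 2.92 to 4.15, and the 6 WT libraries lie near or below it, at ratios from 0.533 to 1.15.

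Day and night were compared within each genotype. In WT the 7 genes gave 1 higher and 1 lower at day, where 5.58% of all genes were called higher and 3.88% lower, and in bou-2 they gave 1 higher and 0 lower, where 7.68% were called higher and 7.69% lower. The split moved with the scaling, as edgeR called 1142 genes higher and 794 lower in WT and limma on log2(TPM + 1) called 729 and 1607, and in bou-2 the counts were 1572 and 1574 in edgeR and 1175 and 2739 in limma. CAT2 was higher at day than at night in bou-2, by 1.00 on the log2 scale (95% interval 0.77 to 1.23, edgeR adjusted p = 0.000137), and in WT by 0.49 (95% interval 0.26 to 0.72, edgeR adjusted p = 0.0142). The WT call was lost without WT night replicate 1 or 2 (edgeR adjusted p = 0.0707 and 0.0631). A minor CAT2 transcript, AT4G35090.2, at 27.0 ± 4.75 TPM in bou-2 at day and 11.1 ± 0.319 TPM in bou-2 at night (SD, n = 3 each), was also higher at day, by 1.42 in bou-2 (edgeR adjusted p = 6.47e-05) and 1.16 in WT (edgeR adjusted p = 0.000347). At night bou-2 had less of this transcript (log2 fold change -0.48, edgeR adjusted p = 0.0235), a call that was lost without any bou-2 night replicate or without WT night replicate 1 or 3 (edgeR adjusted p up to 0.0870).

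CAT1 went the other way in WT, lower at day by -0.70 (95% interval -0.92 to -0.48, edgeR adjusted p = 0.00147), and in bou-2 the day and night libraries overlapped, with -0.11 (95% interval -0.32 to 0.10, edgeR adjusted p = 0.531). CAT3 did not pass in either genotype. In bou-2 its day libraries lay below its night libraries, with -0.82 (95% interval -1.47 to -0.17, edgeR adjusted p = 0.0920), and in WT the libraries overlapped, with -0.16 (95% interval -0.80 to 0.48, edgeR adjusted p = 0.819). Without WT day replicate 2 both were called, at -0.82 in bou-2 (edgeR adjusted p = 0.00163) and -0.72 in WT (edgeR adjusted p = 0.00968), and the difference in bou-2 was also called by DESeq2, by limma and in a fit of the 6 bou-2 libraries (adjusted p between 0.00456 and 0.0489). The minor transcript AT1G20620.2 was lower at day in bou-2 (log2 fold change -1.12, edgeR adjusted p = 0.0308), a call lost without bou-2 day replicate 1 or 2 or any bou-2 night replicate (edgeR adjusted p between 0.0809 and 0.106). None of the 4 tested APX genes was called between day and night in either genotype. APX1 in bou-2 stood at -0.29 (95% interval -0.64 to 0.06, edgeR adjusted p = 0.280), and without bou-2 day replicate 1 it was called lower at day, at -0.48 (edgeR adjusted p = 0.0383).

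The difference between the mutant's effect at day and at night was tested directly. None of the 7 genes passed in edgeR, where 0.538% of all genes were called positive and 0.645% negative. DESeq2's Wald test called more of all 20458 genes, 583 positive and 508 negative, against 110 and 132 in edgeR. Of the 7 genes, 2 had an unadjusted p under 0.05 in edgeR, and the same 2 were called by DESeq2's Wald test. These were CAT1, whose effect was larger at day by 0.59 (95% interval 0.29 to 0.89, edgeR adjusted p = 0.0814, DESeq2 adjusted p = 0.00309), and CAT2, whose effect was larger at day by 0.51 (95% interval 0.18 to 0.83, edgeR adjusted p = 0.142, DESeq2 adjusted p = 0.0044). Without WT day replicate 3 the CAT2 difference was 0.63 (edgeR adjusted p = 0.0256).

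The surrounding pathway was read from 9 lists with 70 genes, of which 67 were tested. At day 22 of them were called higher and 8 lower, and at night 19 higher and 10 lower, with medians of 0.22 at day and 0.14 at night beside -0.04 and 0.02 over all genes. Changes in the lists are log2 fold changes of bou-2 over WT. No test compared the lists, and their counts are given beside the shares of all genes called, 14.8% higher and 12.8% lower at day and 14.8% higher with 12.2% lower at night.

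Of the 10 genes that return ascorbate to its reduced form, 4 were higher and 2 lower at day, while at night 3 were higher and 1 was lower. DHAR2 (AT1G75270), a cytosolic dehydroascorbate reductase, gave 79.7, 83.7 and 93.3 TPM in bou-2 at day, against 14.7, 31.7 and 25.9 TPM in WT at day, and rose by 1.71 at day (edgeR adjusted p = 0.000618) and 1.06 at night (edgeR adjusted p = 0.00739). DHAR3 (AT5G16710), the chloroplast isoform, fell by 0.95 at day (edgeR adjusted p = 0.000799) and fell by 0.80 at night (edgeR adjusted p = 0.00194), and DHAR1 (AT1G19570) fell by 1.45 at day (edgeR adjusted p = 0.0294). GR1 (AT3G24170), a glutathione reductase, was higher by 0.42 at day (edgeR adjusted p = 0.0338) and 0.62 at night (edgeR adjusted p = 0.0054). The day call of DHAR1 was lost when bou-2 day replicate 2 or 3 or WT day replicate 2 was left out (edgeR adjusted p between 0.0786 and 0.105), with the change at -0.81 without WT day replicate 2, and that of GR1 when bou-2 day replicate 1 or 3, any WT day replicate or bou-2 night replicate 1 was left out (edgeR adjusted p between 0.0531 and 0.113).

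Among the 9 ascorbate synthesis genes 2 were called in each direction at day, while at night 4 were lower and 0 higher. VTC2 (AT4G26850), the GDP-L-galactose phosphorylase that commits the pathway, gave 424, 392 and 425 TPM in bou-2 at night, against 659, 617 and 875 TPM in WT at night, and fell by 0.89 (edgeR adjusted p = 0.000519), while at day its difference was 0.09 (edgeR adjusted p = 0.63). VTC1 (AT2G39770), which makes GDP-mannose, fell by 0.76 at day (edgeR adjusted p = 0.0017) and fell by 0.86 at night (edgeR adjusted p = 0.000951). PMI1 (AT3G02570), a phosphomannose isomerase, fell by 0.59 at night (edgeR adjusted p = 0.00514), and GalDH (AT4G33670), a later dehydrogenase of the pathway, was higher at day by 0.64 (edgeR adjusted p = 0.0118).

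Other peroxidases were followed by family. Of the 7 tested genes of the glutathione peroxidase-like family, 3 were higher and 0 lower at both times. GPX7 (AT4G31870), a chloroplast member, gave 259.9, 280.3 and 320.4 TPM in bou-2 at day, against 77.8, 57.7 and 61.0 TPM in WT at day, and 109, 99.1 and 100.3 TPM in bou-2 at night, against 12.4, 14.6 and 12.7 TPM in WT at night. It rose by 2.01 at day (edgeR adjusted p = 7.06e-06) and 2.85 at night (edgeR adjusted p = 1.71e-06). GPX6 (AT4G11600) rose by 1.36 at day and 1.1 at night, and GPX2 (AT2G31570) by 0.72 at day and 0.73 at night (edgeR adjusted p between 9.93e-05 and 0.00174).

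Of the 8 tested peroxiredoxin genes, 4 were higher and 2 lower at day, while at night 3 were higher and 1 was lower. Both chloroplast 2-Cys genes were lower at day, where 2CPA (AT3G11630) fell by 1.06 (edgeR adjusted p = 0.00126) and 2CPB (AT5G06290) fell by 0.77 (edgeR adjusted p = 0.00835), and at night 2CPA fell by 0.93 (edgeR adjusted p = 0.00239). PRXIIC (AT1G65970) and PRXIID (AT1G60740), type II genes of low level, were higher by 2.79 and 3.28 at day and by 3.7 and 4.15 at night (edgeR adjusted p between 0.000175 and 0.00381), but they are close copies of each other and of PRXIIB, and how the counting divided reads between them is uncertain. PRXIID was at 0.103, 0 and 0.157 TPM in WT at night, and its fitted change ran from 1.38 to 3.37 at day and from 1.41 to 4.82 at night over the alternatives.

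Superoxide dismutases make hydrogen peroxide from superoxide, and of the 7 tested genes 1 was lower at day and 3 at night, with 0 higher. CSD2 (AT2G28190), the chloroplast copper-zinc enzyme, fell by 0.76 at day (edgeR adjusted p = 0.00272) and fell by 0.55 at night (edgeR adjusted p = 0.0131). FSD2 (AT5G51100), an iron enzyme of chloroplasts, fell by 0.71 at night (edgeR adjusted p = 0.0138), and CSD3 (AT5G18100) fell by 0.45 (edgeR adjusted p = 0.0433). FSD2 lost its call without bou-2 night replicate 3 or WT night replicate 2 (edgeR adjusted p between 0.0545 and 0.0570), and CSD3 without any 1 of 10 libraries, the exceptions being WT day replicates 1 and 2 (edgeR adjusted p up to 0.148). TL29 (AT4G09010), a lumen protein related to ascorbate peroxidase, fell by 0.83 at both times (edgeR adjusted p = 0.00688 at day and 0.00687 at night). The other listed relatives, APX5 and APX6, were not called.

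Of the 12 genes that can supply hydrogen peroxide, 4 were higher at day and 6 at night, and 0 were lower. They included acyl-CoA oxidases of peroxisomal beta-oxidation, with ACX4 (AT3G51840) higher by 1.07 at day and 1.11 at night, ACX2 (AT5G65110) by 0.71 and 0.77 and ACX1 (AT4G16760) by 0.59 and 1.0 (edgeR adjusted p between 0.000377 and 0.0177). ACX1 at day was not called without WT day replicate 1 (edgeR adjusted p = 0.0541). GOX3 (AT4G18360), a minor glycolate oxidase, was higher at night by 1.87 (edgeR adjusted p = 0.0257) and lost that call without bou-2 night replicate 2 or 3 or any WT night replicate (edgeR adjusted p between 0.0544 and 0.0922). The main glycolate oxidase genes GOX1 and GOX2 were not called at either time. Over the alternatives, 0 to 2 genes of this list were called lower at night.

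Among 3 genes for proteins that act with catalase, NCA1 (AT3G54360), a chaperone needed for catalase activity, was higher at day by 0.29 (edgeR adjusted p = 0.047), and that call was lost without any 1 of 10 libraries, the exceptions being bou-2 day replicate 1 and WT day replicate 3 (edgeR adjusted p up to 0.127). Of the 8 regulators linked to peroxide, 4 were higher at each time and 0 lower. HSFA2 (AT2G26150), a heat shock factor known to act on APX2, gave 14.1, 17.3 and 19.97 TPM in bou-2 at day, against 5.72, 9.58 and 5.77 TPM in WT at day, and rose by 1.19 at day (edgeR adjusted p = 0.0423) and 3.64 at night (edgeR adjusted p = 0.000895), while APX2 itself stayed near 0. At night HSFA2 was low, at 3.35, 3.69 and 2.73 TPM in bou-2, against 0.340, 0 and 0.355 TPM in WT, and its fitted change there ran from 1.80 to 4.10 over the alternatives, the lowest with limma on log2(TPM + 1). ZAT12 (AT5G59820), a zinc finger factor, rose by 1.16 at day and 1.79 at night, DREB2A (AT5G05410), a drought and heat factor, by 2.34 and 2.54, and OXI1 (AT3G25250), a peroxide-inducible kinase, by 2.87 at day (edgeR adjusted p between 0.00422 and 0.0293). HSFA2 at day lost its call without any 1 of 9 libraries (edgeR adjusted p up to 0.124), the exceptions being WT day replicate 2 and WT night replicates 2 and 3. ZAT12 at day lost it without bou-2 day replicate 2 or 3 or WT day replicate 3 (edgeR adjusted p up to 0.103), and DREB2A without bou-2 day replicate 2 or WT day replicate 3 at day and without bou-2 night replicate 1 or 3 at night (edgeR adjusted p up to 0.0821). With limma on log2(TPM + 1) the change of DREB2A at night was 1.36 and that of OXI1 at day 2.11.

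**Figure D5:**
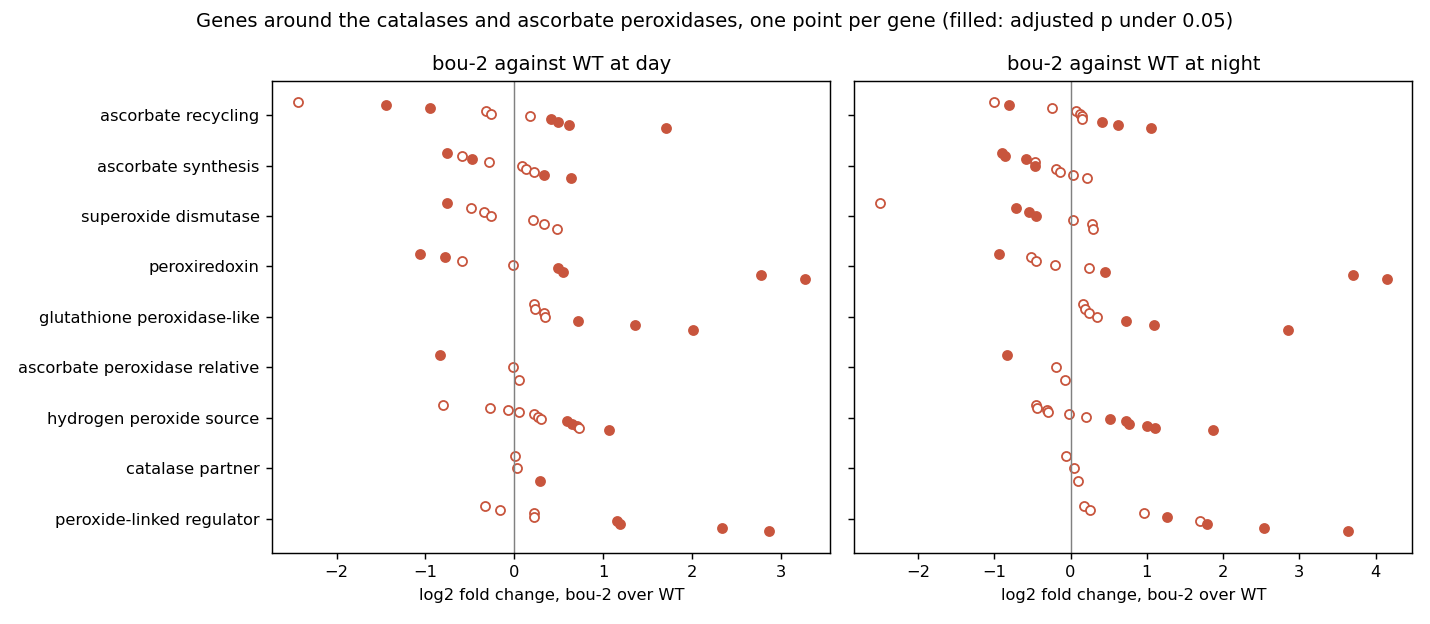
Log2 fold change of bou-2 over WT (horizontal axis) at day on the left and at night on the right for the 67 tested genes of the 9 lists, with 1 point per gene and filled points for an adjusted p under 0.05. The glutathione peroxidase-like genes all lie above 0, the hydrogen peroxide sources hold filled points only above 0, and the dismutases hold filled points only below 0.

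The genes with a pattern most like each member were sought among 15217 other genes by Pearson r of log2(TPM + 1) over the 12 libraries, as a description. CAT1 ran closest to the proteasome genes PBE1 (AT1G13060) and PBD2 (AT4G14800), both at 0.99, and sAPX to the ribosomal protein genes AT4G26230 and AT2G19750, both at 0.99. tAPX ran closest to the methyltransferase gene PMEAMT (AT1G48600) and the photosystem I subunit PSAE-2 (AT2G20260), both at 0.99. CAT2 was most like HCF173 (AT1G16720) and SDR1 (AT3G61220), both at 0.98, and CAT3 most like lipoamide dehydrogenase mtLPD2 (AT3G17240) and thioredoxin reductase NTRA (AT2G17420), both at 0.98. APX3 was most like MORF9 (AT1G11430) and AT1G66130, both at 0.97, and APX1 most like AT2G33410 at 0.96 and LRL1 (AT2G24260) at 0.95. These neighbours depended on the scale. By r of log2 CPM, HCF173 and mtLPD2 were again first and both genes of APX1 kept their places, but AT1G66130 stood at rank 97 for APX3, AT4G26230 at rank 37 for sAPX, NTRA at rank 23 for CAT3 and PMEAMT at rank 10 for tAPX, and the other 6 stood at ranks 3 to 6. Among the members, CAT1 and sAPX had the highest r at 0.91, and the 12 points of each pair share library, genotype and time.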

How the data were processed

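RNA-Seq libraries of leaves were prepared with TruSeq v2 and sequenced by the authors as paired reads, 12 libraries per lane. Per the submitters' processing notes and the methods, reads were assigned to TAIR10 transcripts with kallisto 0.43.0 and tested with sleuth 0.28.1. The estimated counts were deposited by the authors as kallisto gave them, without normalization, and the TPM values were scaled by the authors per library and transcript length. The authors' means, log2 ratios and q-values in the same table were not used. Of 41415 lines, 23 repeated a transcript and were dropped.

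Estimated counts were rounded and tested per transcript in R 4.3.3 with edgeR 4.0.16, after filterByExpr (minimum count 10, minimum total 15, proportion 0.7) and TMM scaling, in 1 quasi-likelihood model of all 12 libraries with 5 contrasts. This left 26153 transcripts and 20458 genes. The Benjamini-Hochberg adjustment covered every transcript tested. A locus was represented by its transcript with the highest mean WT TPM. Alternatives used DESeq2 1.42.0, limma 3.58.1 on log2(TPM + 1) and log2(TPM + 0.1), no filter, a replicate block, counts summed per gene, 10 abundant transcripts left out, each library left out, and only the 6 libraries compared. Scripts were tested on simulated data. Depth was 15911356 to 33046562 estimated counts per library, and rare transcripts such as APX2 are near its limit.

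The members, lists and tests were chosen with earlier results of these data known. The text names the 8 members, their other transcripts with a mean of at least 1 TPM in a group, up to 4 called genes per list by size of change with a mean of at least 1 TPM in a group, and the 2 genes most like each member with a mean of at least 5 TPM in a group. Nothing in the labels says that the 3 libraries of a group came from separate plants, so that p-values rest on a spread that may be technical. Upstream windows were read from RefSeq TAIR10.1, since the deposited table gives no coordinates.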

Additional observations from a re-analysis of the deposited data

Results flagged for a closer look

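Of the genes named above, 2 had an effect of bou-2 that differed between day and night in edgeR's interaction test, and neither is a catalase or ascorbate peroxidase. For VTC2 (AT4G26850) the log2 fold change of bou-2 over WT was higher at day than at night by 0.98 (edgeR adjusted p = 0.0221), and the call was lost without bou-2 day replicate 2 or 3 or any bou-2 night replicate (edgeR adjusted p between 0.0629 and 0.0802). For GPX7 (AT4G31870) it differed by -0.83 (edgeR adjusted p = 0.0425), with the rise in bou-2 larger at night, and the call was lost without any 1 of 10 libraries, the exceptions being WT day replicates 2 and 3 (edgeR adjusted p between 0.0567 and 0.146). It was also lost with DESeq2's size factors (adjusted p = 0.0553), with limma on log2(TPM + 1) (adjusted p = 0.0733) and log2(TPM + 0.1) (adjusted p = 0.0626), without the 10 most abundant transcripts (edgeR adjusted p = 0.0532) and with the replicate block (edgeR adjusted p = 0.1103).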

How the results depend on the processing

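CAT1, sAPX and tAPX kept their direction between the genotypes at both times under all 21 alternatives, and their calls under all but 1, tAPX at day when the 6 day libraries were fitted alone. The number of members called at day was 2 in place of 4 when only the 6 libraries under comparison were fitted. That fit called 1452 genes higher and 822 lower of 19831 tested at day, in place of 3021 and 2627 of 20458. At night the member count stayed at 5, and 3912 of 19919 genes were called higher and 3647 lower, in place of 3022 and 2499. Replicate counts differed most in WT at day, with chi-square per degree of freedom from 55.6 to 89.0, against 9.63 to 25.2 in other groups. For day against night in WT the number of members called was 1 in place of 2 with limma on either log2 TPM scale and with the 6 libraries compared, and 1 to 3 with 1 library left out (3 without WT day replicate 2, 1 without WT night replicate 1 or 2). For day against night in bou-2 it was 2 in place of 1 with limma on either scale, with DESeq2's test and with the 6 libraries compared, and 1 to 2 with 1 library left out (2 without bou-2 day replicate 1 or WT day replicate 2). For the difference between the times it was 2 in place of 0 with DESeq2's Wald test and 0 to 1 with 1 library left out (1 without WT day replicate 3). Calls over all genes rose there as well, from 110 positive and 132 negative to 583 and 508 with DESeq2's Wald test. Without WT day replicate 3 they were 548 and 534. The cause was not tested.

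APX3 at night, at 0.01 on the log2 scale, turned to -0.0095 with DESeq2's size factors, -0.0093 with DESeq2's test, -0.0052 with counts summed per gene, -0.0084 without the 10 most abundant transcripts and -0.00090 with the 6 libraries compared, and ran from -0.026 to 0.034 with 1 library left out. CAT2 at night was 0.0514 with limma on either TPM scale, in place of -0.05. CAT3 between day and night in WT ran from -0.72 to 0.0644 with 1 library left out. On the log2 TPM scales the median over all genes stood at 0.05 and 0.06 at day, in place of -0.04, at 0.11 and 0.13 at night, in place of 0.02, at -0.10 and -0.12 between day and night in WT, in place of 0.01, and at -0.12 and -0.15 in bou-2, in place of -0.01.

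Among the list counts at day, peroxide sources higher ran from 2 to 7 over the alternatives (4 as reported), ascorbate recycling genes higher from 2 to 5 (4), glutathione peroxidase-like genes higher from 3 to 6 (3), peroxide-linked regulators higher from 1 to 4 (4), dismutases higher from 0 to 3 (0) and lower from 1 to 3 (1), and ascorbate synthesis genes higher from 0 to 2 (2). At night peroxide-linked regulators higher ran from 2 to 6 (4) and peroxide sources lower from 0 to 2 (0). Dismutases lower at night ran from 1 to 4 (3) and higher from 0 to 1 (0).

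When only the 6 libraries under comparison entered the fit, 66 of 82 reported calls were kept. Those lost at day included 2CPB, TL29, GalDH, RBCS1A, DHAR1, GR1, ACX1, NCA1, ZAT12, SEN1 and WRKY53 (edgeR adjusted p between 0.0527 and 0.168), and DREB2A was lost at night (0.0568).

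The replicate numbers did not pair the libraries, since deviations of same-numbered libraries correlated between -0.08 and 0.06. With the replicate number as a block 4 members were called at day, 5 at night, 2 between day and night in WT, 1 in bou-2 and 0 in the difference between the times, the counts found without it, and 73 of the 84 calls reported for members, their transcripts and listed genes were kept.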

Other observations

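The marker genes of leaf cells and of ageing leaves had values of their own. The light-harvesting genes LHCB1.3 (AT1G29930) and LHCA1 (AT3G54890) had log2 fold changes of bou-2 over WT of -1.48 and -1.18 at day and -1.16 and -0.73 at night, with edgeR adjusted p between 0.000409 and 0.00532. LHCB1.1 (AT1G29920) was lower at day (-1.31, edgeR adjusted p = 0.00134) and at -0.56 at night did not pass (edgeR adjusted p = 0.0676), and it is a close copy of LHCB1.3, so that reads may be divided between them. RBCS1A (AT1G67090), a Rubisco small subunit gene, was lower by day (-0.80, edgeR adjusted p = 0.00295) and by night (-0.74, edgeR adjusted p = 0.00435).

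Among the markers of senescing leaves, SEN1 (AT4G35770) rose by 2.44 at day (edgeR adjusted p = 0.029) and 2.46 at night (edgeR adjusted p = 0.0315), but the day call was lost without any bou-2 day replicate or WT day replicate 1 or 3 and the night call without any bou-2 night replicate or WT night replicate 2 or 3 (edgeR adjusted p up to 0.107). Its change was 3.94 at day without WT day replicate 2 and 3.17 at night without WT night replicate 1. SAG21 (AT4G02380) rose by 1.59 at night (edgeR adjusted p = 0.00317). WRKY53 (AT4G23810) was lower at day (-1.11, edgeR adjusted p = 0.0428), a call that was lost without any 1 of 11 libraries, the exception being WT day replicate 3 (edgeR adjusted p up to 0.141).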
